A study of Mus musculus with 48 samples.

Results

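The comparison described here is that of lead-exposed sons with control sons: the 6 male Pb animals against the 6 male control animals, 12 of the 48 libraries of the series, chosen from the labelled sex and treatment and by no measured value. RNA was taken from the hippocampus of mice of the outbred CD-1 stock at 2 months of age. The dams of the Pb group drank water with 100 ppm lead (Pb) for 8 weeks, beginning 2 weeks before mating and ending at weaning (postnatal day 21). The dams of the control group received neither lead nor manganese (Mn), the other metal of the study. Female Pb and female control animals of the same age and treatment, and male Pb+Mn animals of that age, are drawn on near the end. For male Pb+Mn the dams received 100 ppm lead and 2 g per L manganese over the same period. The sons themselves were therefore exposed through the dam, and which of them were littermates is not stated, so every p-value below rests on differences among animals, and litters could not be taken into account.

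Lead ions resemble calcium and zinc closely enough to occupy their places in proteins. Lead is known to inhibit delta-aminolevulinic acid dehydratase, the zinc enzyme of heme synthesis encoded by Alad, to block the NMDA type of glutamate receptor, on which synaptic plasticity in the hippocampus depends, and to collect in mitochondria. It crosses the placenta and passes into milk, and the developing hippocampus is among the brain regions in which early lead exposure has been studied most.

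The 12 libraries held 6.27 to 27.6 M counts. Markers of dentate granule cells (Prox1, 54.0 to 184 CPM, read counts scaled to a common library total), of CA1 pyramidal neurons (Wfs1, 59.8 to 261 CPM) and of astrocytes (Slc1a2, 3834 to 7061 CPM) were present in all 12, as the label hippocampus implies. The Y-linked gene Ddx3y was read at 25.0 to 40.6 CPM in all 12 libraries. Xist, the RNA that coats the inactive X chromosome in females, was read at 24.4 CPM in male control 4 and at no more than 0.307 CPM in the other 11, so results that turn on this library are also given without it. Male Pb 6 also stood apart, by a trend with transcript length. The trend was measured in each library as the slope of log2 CPM, centred on the mean of the 12 libraries, on log2 transcript length, over 13094 genes. The slope was -0.348 in male Pb 6, the lowest of the 48 libraries, so that short transcripts had high values and long transcripts low values in this animal. The other 5 male Pb animals had slopes of -0.113 (Pb 4) to 0.103 (Pb 2), within or just below the range of the controls, which ran from -0.0617 to 0.139. The mean slope was -0.0538 ± 0.16 (SD, n = 6) in male Pb and 0.0538 ± 0.075 (SD, n = 6) in male control, with p = 0.15 in an exact two-sided permutation test. Without Pb 6 the means were 0.00497 ± 0.077 (SD, n = 5) and 0.0538 ± 0.075 (SD, n = 6), with an exact permutation p of 0.3.

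**Figure D1:**
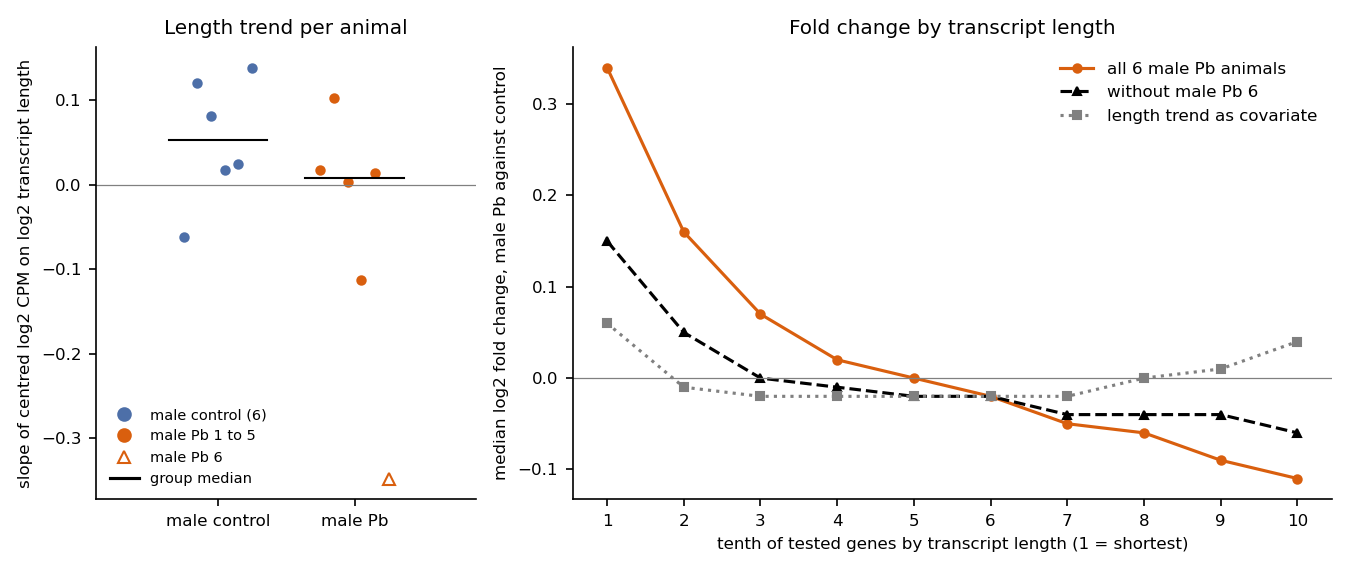
Left, the slope of centred log2 CPM on log2 transcript length in each animal (y axis), with a line at the group median. Right, the median log2 fold change of male Pb against male control (y axis) in each decile of the tested genes by transcript length (x axis), for all 6 male Pb animals, without Pb 6, and with the slope of each library as a covariate. Male Pb 6 lies at -0.348, below every other animal, and the median of the shortest decile goes from 0.34 to 0.15 without it.

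No gene passed an adjusted p of 0.05 among the 16360 genes tested with the quasi-likelihood test of edgeR and Benjamini-Hochberg adjustment, either with all 6 male Pb animals (smallest adjusted p 0.4) or without Pb 6 (smallest adjusted p 0.92). DESeq2, limma voom and limma voom with library weights also called no gene. At an unadjusted p under 0.05, 1886 genes (11.5% of those tested) differed by edgeR, 1251 of them higher in male Pb (7.65%) and 635 lower (3.88%). The unadjusted count was 1987 by DESeq2, 1655 by voom and 2173 by voom with library weights. In the last of these, which gives less weight to libraries that fit poorly, 1124 were higher and 1049 lower, so the surplus of higher genes was largely gone. Chance alone is expected to give about 818 genes at an unadjusted p under 0.05, and edgeR on the 12 libraries alone gave 1262 (7.71%). Without Pb 6 the edgeR count was 763 (4.66%), 361 higher (2.21%) and 402 lower (2.46%), which is below the number expected by chance. Of the genes in each count, 608 were shared, which is 32.2% of the 1886 and 79.7% of the 763. With the length slope of each library as a covariate it was 911 (5.57%), 512 higher (3.13%) and 399 lower (2.44%). Leaving out male Pb 2 gave 2871 genes and leaving out male Pb 5 gave 2883, while leaving out male control 4, the library with Xist, gave 2306 (14.1%), 1393 higher (8.51%) and 913 lower (5.58%). With male Pb 2 left out 1 gene passed the adjusted threshold, Rpl14-ps1, a processed copy of a ribosomal protein gene. Its log2 fold change was 1.38 ± 0.26 (SE), with an edgeR adjusted p of 0.043, against 1.23 ± 0.26 and 0.4 with all 12 animals. By DESeq2 the adjusted p of this gene with all 12 animals was 0.053. Reads of such a copy can be shared with the parent gene, so its value is uncertain.

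The share of higher genes was largest among short transcripts. Among the shortest decile of genes (transcripts of 66 to 1122 bases) the median log2 fold change was 0.34, and 28% were higher at an unadjusted p under 0.05. Without Pb 6 the median of these genes was 0.15 and 4.16% were higher, and with the length covariate the median was 0.06. The longest decile had a median of -0.11, -0.06 without Pb 6, and 0.04 with the covariate. For most families of short or long transcripts described below, the medians without Pb 6 and with the length covariate are therefore given beside the first value. The part of the length trend in each was not tested further.

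The cytosolic ribosomal protein genes, which encode the protein part of the ribosome and have a median transcript length of 906 bases, had higher values in male Pb throughout. All 79 had a positive log2 fold change and 73 were higher at an unadjusted p under 0.05, against 7.65% of all genes tested. The median was 0.61, beside 0.01 over all genes. Without Pb 6, 78 of the 79 were still positive, 13 were at an unadjusted p under 0.05 (2.21% of all genes were higher then), and the median was 0.36. With the length covariate the median was 0.23. Per animal, as the mean of log2 CPM over the list less the control mean, Pb 6 stood at 1.45, Pb 1 at 0.65, Pb 4 at 0.48, Pb 3 at 0.44, Pb 5 at 0.22 and Pb 2 at -0.07, and the controls ran from -0.17 to 0.31 (control 4). So 4 of the 6 male Pb animals lay above every control, and Pb 2 and Pb 5 lay among the controls. Rps12, a protein of the small subunit, was read at 158, 201 and 320 CPM (lowest, median, highest) in control and 224, 369 and 957 CPM in male Pb. The 957 CPM is that of Pb 6, and 4 of the 6 male Pb animals exceeded all controls. The log2 fold change of Rps12 was 1.04 ± 0.31 (SE), 0.64 without Pb 6 and 0.51 with the covariate. Rps7 ran from 182 to 234 CPM in control and from 197 to 663 in male Pb, and Rps20 from 130 to 195 and from 159 to 408. In both genes Pb 6 again had the highest value, and 5 of the 6 male Pb animals exceeded all controls.

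Ribosomal protein messenger RNAs are known to begin with a terminal oligopyrimidine tract, through which their translation is controlled together. The stretch around the annotated start is shown for 4 of them, each of which holds the letters CTTTC or CTTTT. The letters lie at varying distances from that start, so they are not shown to be the tract itself. Each run of 50 bases, from RefSeq on GRCm38.p6, covers 30 bases before to 20 after the annotated start, on the strand of the gene, and capitals mark the letters CTTTC or CTTTT from 10 bases before the start onwards, with overlapping matches joined into 1 run in Rpl7a. Rpl7a is at chr2:26910777-26910826 (+), Rps12 at chr10:23787190-23787239 (-), Rpl12 at chr2:32961682-32961731 (+) and Rpl38 at chr11:114668550-114668599 (+).
Rpl7a: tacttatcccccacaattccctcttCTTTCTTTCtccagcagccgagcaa
Rps12: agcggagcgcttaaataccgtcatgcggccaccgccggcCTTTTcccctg
Rpl12: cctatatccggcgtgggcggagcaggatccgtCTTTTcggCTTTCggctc
Rpl38: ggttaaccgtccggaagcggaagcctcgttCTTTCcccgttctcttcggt
On the strand of the gene, from 10 bases before to 20 after the start, CTTTC or CTTTT occurred in 16 of the 58 ribosomal protein genes with a RefSeq promoter (27.6%) and in 637 of all 11833 tested genes with one (5.38%). The median log2 fold change was 0.58 over the 16 with these letters and 0.65 over the 42 without them, so the higher values were not limited to genes with the letters in this window.

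The respiratory chain is encoded by both genomes of the cell, and its nuclear and mitochondrial genes differed in how far their values rested on Pb 6. Of the 76 nuclear-encoded subunits of the 5 complexes, 72 had a positive log2 fold change and 53 were higher at an unadjusted p under 0.05, against 7.65% of all genes tested. The median was 0.46, 0.2 without Pb 6 and 0.1 with the length covariate. Without Pb 6 only 2 of the 76 were at that p, which is near the 2.21% of all genes. With the covariate 16 were, against 3.13%. The medians ran from 0.28 for complex II to 0.63 for complex IV (cytochrome c oxidase), and without Pb 6 from 0.11 to 0.37 for the same pair, or 0.04 and 0.23 with the covariate. Cox7b, a small subunit of complex IV, was read at 104, 169 and 258 CPM in control and 109, 244 and 1252 CPM in male Pb. Cox7b had a log2 fold change of 1.31 ± 0.42 (SE) and 0.57 without Pb 6 (0.44 with the covariate), which held the highest value, while Pb 1, Pb 2 and Pb 5 lay within the controls. Cox8a, another subunit of complex IV, was read at 347, 371 and 506 CPM in control and 423, 548 and 881 CPM in male Pb, with a log2 fold change of 0.54 ± 0.17 (SE), 0.38 without Pb 6 and 0.25 with the covariate. Ndufb8 of complex I (NADH dehydrogenase) ran from 17.3 to 23.1 CPM in control and from 21.3 to 81.8 in male Pb.

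The 13 proteins encoded in mitochondrial DNA gave nearly the same values with and without Pb 6. All 13 had a positive log2 fold change and 12 were higher at an unadjusted p under 0.05, both with Pb 6 (median 0.51, against 7.65% of all genes) and without it (median 0.54, against 2.21%). With the length covariate 11 were, against 3.13%, at a median of 0.5, and without control 4 the median was 0.54. Mt-Nd1, a subunit of complex I given as mt-Nd1 in the files, was read at 5551, 5981 and 6565 CPM in control and 5728, 8091 and 11647 CPM in male Pb. Only Pb 4 lay within the controls, and Pb 1 was highest. The log2 fold change of mt-Nd1 was 0.51 ± 0.18 (SE) with an unadjusted p of 0.008, and 0.52 without Pb 6. The catalytic subunit of complex IV, mt-Co1, was read at 12201, 13853 and 15461 CPM in control and 14691, 17556 and 27569 CPM in male Pb, with Pb 5 alone within the control range. The log2 fold change of mt-Co1 was 0.44 ± 0.16 (SE), 0.42 without Pb 6 and 0.37 with the covariate. For mt-Nd5 the range was 2460 to 3319 CPM in control and 3066 to 5253 CPM in male Pb, where again Pb 5 was the only animal within the controls. The ribosomal RNAs of the mitochondrial ribosome had the same direction. For mt-Rnr2, the large of the pair, the values were 5174, 5704 and 7829 CPM in control and 6832, 10043 and 17439 CPM in male Pb (log2 fold change 0.93 ± 0.26 SE, 0.76 without Pb 6). For mt-Rnr1, the small of the pair, they were 3781, 4347 and 6057 CPM and 4934, 6620 and 12786 CPM (0.76 ± 0.25 SE, 0.66 without Pb 6). Mitochondrial transcripts together took 5.0% ± 0.465 (SD, n = 6) of all counts in male control, with a range of 4.59 to 5.84%, and 6.97% ± 1.58 (SD, n = 6) in male Pb, with a range of 5.28 to 9.5% (Pb 1). Other animals of the series also reached high shares, up to 8.38% in male Mn and 7.71% in female control. In bulk tissue, more mitochondria per cell, more RNA per mitochondrion and other cells in the sample cannot be told apart. Not every mitochondrial gene was counted alike: mt-Co2 was read at only 7.77 to 18.7 CPM. Another, mt-Nd3, was read at only 0.0479 to 0.467 CPM in control and 0.503 to 0.867 CPM in male Pb. Its log2 fold change of 1.32, the highest of the 13, therefore rests on few reads. Near-identical nuclear copies of mitochondrial genes exist, and the treatment of reads with several matches is not known here, which makes the level of mt-Co2 uncertain.

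**Figure D2:**
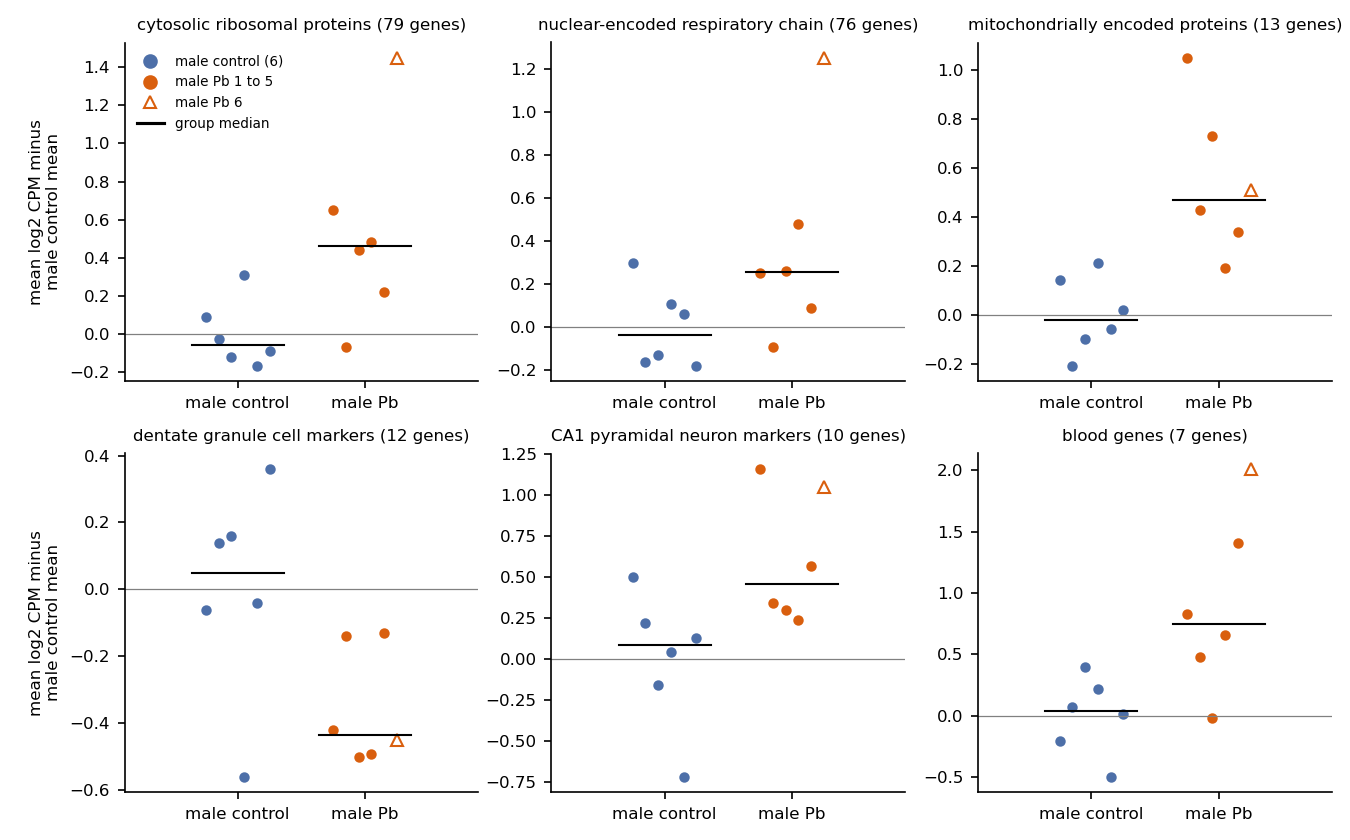
Each point is the mean of log2 CPM over the genes of a list in 1 animal, less the mean of the male controls (y axis), for 6 lists in male control and male Pb animals (x axis), with a line at the group median. Male Pb 6 lies far above the rest for the nuclear lists of short transcripts (1.45 for ribosomal proteins), whereas male Pb 1 is the highest for the mitochondrially encoded proteins (1.05), and male control 4 is the lowest of all 12 for the dentate markers (-0.56). The CA1 mean takes in a member with a log2 fold change of 7.48, which weighs on it.

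Among genes averaging 0 or more in log2 CPM, the 8 higher of smallest p are described first. Their adjusted p by edgeR was 0.4 each. Ndufaf8, an assembly factor of complex I, was read at 8.88, 12 and 13.3 CPM in control and 14.5, 16.6 and 29.0 CPM in male Pb. All 6 male Pb animals lay above all 6 controls. The log2 fold change was 0.65 ± 0.16 (SE) and, without the highest animal, Pb 6, 0.47 ± 0.15. Ddt, D-dopachrome tautomerase, a relative of the cytokine macrophage migration inhibitory factor, also had no overlap, with 9.54, 11 and 12.7 CPM in control and 13.1, 14.3 and 21.1 CPM in male Pb (0.53 ± 0.15 SE, 0.43 without Pb 6). St3gal4, an enzyme that adds sialic acid to galactose on glycoproteins, was read at 11.4, 21.1 and 30.6 CPM in control and 26.9, 43.3 and 49.9 CPM in male Pb. Pb 2 and Pb 5 lay within the controls and the other 4 above them. Its log2 fold change of 0.91 ± 0.24 (SE) was nearly the same without Pb 6 (0.87 ± 0.25). Fgfrl1, a fibroblast growth factor receptor without a kinase domain, was read at 16.9, 20.1 and 26.9 CPM in control and 24.9, 29.8 and 36.5 CPM in male Pb (0.49 ± 0.14 SE, 0.48 without Pb 6). Pvalb, the calcium-binding protein of fast-spiking inhibitory neurons, was read at 26.9, 28.5 and 36.9 CPM in control and 31.6, 46.4 and 73.5 CPM in male Pb (0.69 ± 0.19 SE, 0.53 without Pb 6, 0.39 with the covariate). Here too 4 of the 6 male Pb animals exceeded all controls, and the other 2, Pb 2 and Pb 5, did not. Lgals1, the sugar-binding protein galectin 1, ran from 10.4 to 17.0 CPM in control and from 15.6 to 25.4 in male Pb, and Frmpd3, a protein with FERM and PDZ domains, from 50.5 to 74.7 and from 63.0 to 121 CPM. In both, 5 of the 6 male Pb animals exceeded all controls.

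Of the 8 lower genes of smallest p, Lrrn1, a neuronal membrane protein with leucine-rich repeats, separated the groups. It was read at 101, 109 and 131 CPM in control and 73.2, 81.6 and 89.6 CPM in male Pb. Every male Pb animal was below every control, and the log2 fold change was -0.44 ± 0.12 (SE), -0.45 without Pb 6, -0.3 with the length covariate and -0.47 without control 4. Il1r1, the receptor through which interleukin 1 signals, was read at 13.6, 18.4 and 21.6 CPM in control and 9.19, 11.9 and 14.6 CPM in male Pb. Only Pb 2 reached the control range, whose lowest value was that of control 4. The log2 fold change of Il1r1 was -0.61 ± 0.15 (SE), -0.62 without Pb 6, and -0.68 without control 4. Its co-receptor Il1rap, which has no place among the 8 but is the second of the interleukin 1 list by p, was read at 52.1, 63.6 and 71.9 CPM in control and 44.0, 48.6 and 54.5 CPM in male Pb (-0.36 ± 0.12 SE, -0.34 without Pb 6). Of the 7 genes tested in the interleukin 1 and inflammatory list, 2 were lower and 1 higher at an unadjusted p under 0.05. Over all genes the shares were 3.88% and 7.65%. The median of the 7 was -0.11. Cdca8, a subunit of the chromosomal passenger complex of dividing cells, was read at only 1.07, 1.37 and 1.73 CPM in control and 0.426, 0.694 and 1.07 CPM in male Pb (-0.98 ± 0.24 SE, -0.89 without Pb 6). Pb 1 alone reached the lowest control. Aatf and Esf1, both nucleolar proteins of ribosomal RNA processing, were lower in 5 of 6 male Pb animals than in any control. Aatf ran from 8.3 to 10.8 CPM in control and from 6.64 to 8.41 in male Pb (-0.41 ± 0.11 SE, -0.42 without Pb 6), and Esf1 from 16.4 to 20.9 and from 12.4 to 18.5 CPM (-0.39 ± 0.11 SE, -0.34 without Pb 6). Anpep, the surface peptidase aminopeptidase N, ran from 2.89 to 5.41 CPM in control and from 2.3 to 3.83 in male Pb. Cemip, a protein of hyaluronan breakdown, ran from 19.1 to 36.5 and from 14.4 to 21.9 CPM, and the orphan receptor Gpr61 from 10.6 to 14.4 and from 8.74 to 11.8 CPM. In Anpep and Cemip 3 of the male Pb animals lay within the controls, in Gpr61 2. The adjusted p of all 8 was 0.4 by edgeR.

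**Figure D3:**
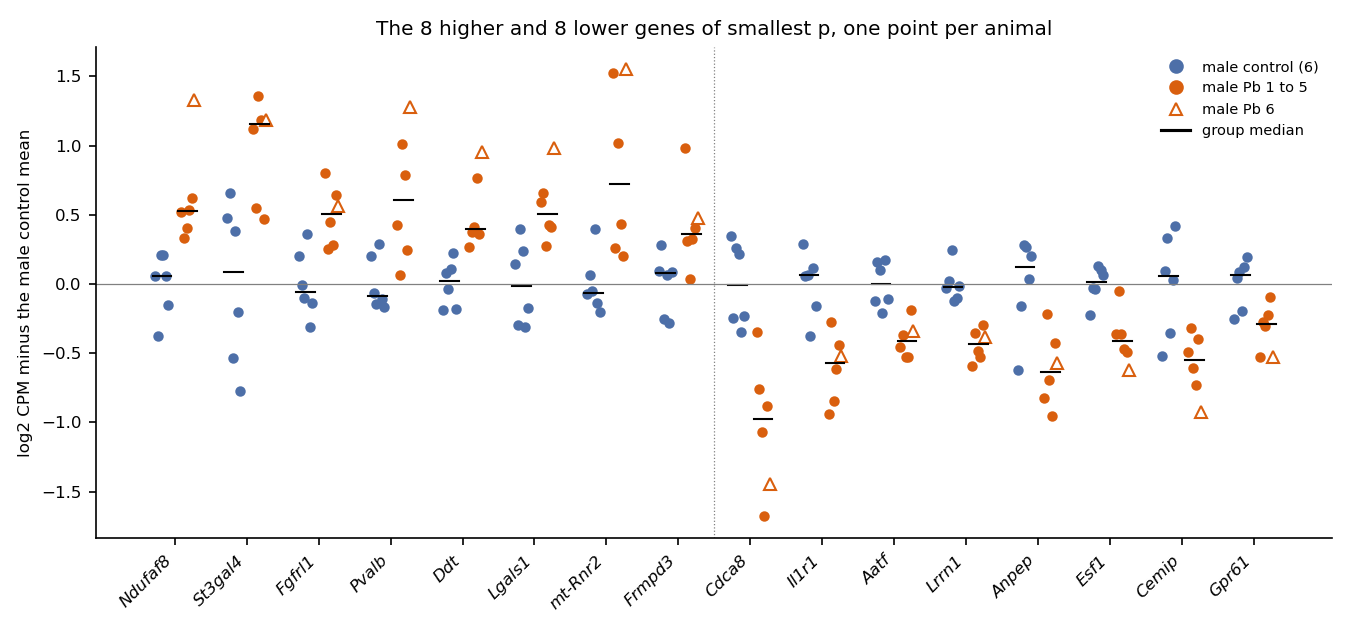
Log2 CPM of the 8 higher and 8 lower genes of smallest p in each of the 12 animals, less the mean of the 6 male controls (y axis), with a line at the group median. Male Pb 6 is the highest animal for Ndufaf8, Pvalb, Ddt, Lgals1 and mt-Rnr2, and lies among the other male Pb animals for Il1r1, Aatf and Lrrn1.

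Over all genes tested, 15 had every male Pb animal above every control (0.0917% of those tested) and 18 had every one below (0.11%), 33 together (0.202%). For 6 against 6, full separation in either direction has a chance probability of 0.0022 per gene, about the share seen. Separation alone therefore does not set these genes apart from chance. Without Pb 6 the numbers of separated genes were 15 (0.0917%) and 34 (0.208%), 49 together (0.3%). Besides Ndufaf8, Ddt and Lrrn1 the 33 include 4 singled out here after their values were seen. Rxrg, the gamma retinoid X receptor, ran from 1.21 to 2.27 CPM in control and from 2.46 to 4.47 in male Pb. Mcee, the mitochondrial methylmalonyl-CoA epimerase, ran from 16.9 to 20.7 and from 22.5 to 36.2 CPM. Dcaf10, an adaptor of a ubiquitin ligase, ran from 19.6 to 21.3 and from 17.0 to 17.9 CPM, and Dcun1d2, a protein of the neddylation pathway, from 30.5 to 33.8 and from 25.5 to 29.8 CPM. The last pair show how small a separated difference can be when animals of a group lie close together: their log2 fold changes were -0.22 ± 0.08 (SE) and -0.23 ± 0.07.

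Removal of Pb 6 brought other genes into the first 8 of each direction. Adcy5, an adenylyl cyclase, was read at 174, 188 and 221 CPM in control and 191, 237 and 292 CPM in male Pb, with log2 fold changes of 0.32 ± 0.1 (SE) with Pb 6 and 0.34 ± 0.11 without. In Adcy5 only Pb 2 lay within the controls. Meis2, a homeobox transcription factor, ran from 14.4 to 24.7 CPM in control and from 20.3 to 39.9 in male Pb, Tmcc2 from 376 to 478 and from 426 to 683 CPM, and Yap1, the co-activator of the Hippo pathway, from 26.6 to 40.8 and from 32.6 to 46.2 CPM. Their log2 fold changes without Pb 6 were 0.49 ± 0.16 (SE), 0.37 ± 0.12 and 0.37 ± 0.12. Among the lower genes Tmeff2, a membrane protein, ran from 73.2 to 92.7 CPM in control and from 62.9 to 77.8 in male Pb, the latter in Pb 6. Pam, the enzyme that amidates neuropeptides, ran from 169 to 206 and from 133 to 193 CPM, and the RNA-binding protein Khdrbs2 from 5.45 to 8.94 and from 3.93 to 7.24 CPM. In all 3, Pb 6 had the highest value of its group, so their fold changes were larger without it (-0.28, -0.29 and -0.56) than with it (-0.24, -0.23 and -0.43).

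Metal-handling genes were examined because metallothioneins, small cysteine-rich proteins that bind zinc and other metals, are induced by metals through the transcription factor Mtf1. The promoters of Mt1 and Mt2 are shown with matches to the core of the metal response element, the site through which this happens. The matches are by letters only, some lie after the annotated start, and none was tested as a working site. The 130 bases run from 100 before to 30 after the annotated start (RefSeq, GRCm38.p6, chr8:94178989-94179118 and chr8:94172518-94172647, both on the + strand), and capitals mark the core of the metal response element, TGCACNC or TGCGCNC, on either strand.
Mt1: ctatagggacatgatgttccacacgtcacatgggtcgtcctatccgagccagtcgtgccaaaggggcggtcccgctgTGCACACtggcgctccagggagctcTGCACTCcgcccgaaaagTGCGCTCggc
Mt2: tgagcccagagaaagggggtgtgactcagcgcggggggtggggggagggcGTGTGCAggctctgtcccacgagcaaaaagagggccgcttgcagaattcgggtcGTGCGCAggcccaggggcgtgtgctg
Over 300 bases, 250 before to 50 after the start, Mt1 held 3 such cores and Mt2 held 4, of which 2 are in the stretch shown. At least 3 occurred in 401 of the 11833 promoters of tested genes (3.39%), and the median log2 fold change of those 401 genes was -0.04, beside 0.0 over all 11833. Mt1 was read at 182, 203 and 270 CPM in control and 165, 253 and 347 CPM in male Pb. The highest male Pb animals (Pb 4, Pb 5, Pb 6) exceeded all controls and the lowest, Pb 1, was below them all. The log2 fold change of Mt1 was 0.25 ± 0.22 (SE), with an edgeR adjusted p of 0.63, and 0.13 without Pb 6. Mt2 was read at 18.2, 25.7 and 34.2 CPM in control and 13.9, 26.7 and 41.4 CPM in male Pb, a log2 fold change of 0.03 ± 0.29 (SE) that was -0.15 without Pb 6. Mt3, the metallothionein of the brain, was read at 270, 284 and 351 CPM in control and 272, 377 and 845 CPM in male Pb. Its log2 fold change of 0.52 ± 0.22 (SE) was 0.21 without Pb 6, the animal at 845 CPM. Mtf1 itself was read at 30.9, 34.6 and 41.3 CPM in control and 27.9, 29.5 and 33.0 CPM in male Pb (-0.25 ± 0.09 SE, -0.23 without Pb 6). Slc39a14, a membrane carrier of zinc, manganese and iron, was read at 37.1, 43.2 and 46.2 CPM in control and 25.6, 32.0 and 37.5 CPM in male Pb. Pb 2 and Pb 5 lay just inside the control range and the other 4 below it, and the log2 fold change of Slc39a14 was -0.38 ± 0.11 (SE), -0.33 without Pb 6 and -0.24 with the covariate. Of the 11 genes of metallothioneins and zinc handling tested, 1 was higher (Mt3) and 2 were lower (Slc39a14, Mtf1) at an unadjusted p under 0.05. Over all genes the shares were 7.65% and 3.88%. The median of the 11 was 0.02.

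Alad was read at 18.9, 28 and 33.9 CPM in control and 25.3, 34.4 and 42.5 CPM in male Pb. Pb 2, Pb 4 and Pb 6 exceeded all controls, and the log2 fold change was 0.33 ± 0.18 (SE), with an edgeR adjusted p of 0.46, and 0.25 without Pb 6. None of the 9 heme synthesis enzymes tested was at an unadjusted p under 0.05, and their median was 0.1. Of the 12 genes of divalent metal and iron transport tested, 2 were higher at that p, against 7.65% of all genes, and none was lower. The 2 were the ferritin chains Fth1 and Ftl1, which store iron. Fth1 was read at 2047, 3030 and 3590 CPM in control and 3166, 3788 and 5519 CPM in male Pb (0.45 ± 0.16 SE, 0.35 without Pb 6, 0.27 with the covariate). Ftl1 was read at 92.4, 101 and 115 CPM in control and 104, 123 and 183 CPM in male Pb (0.36 ± 0.14 SE, 0.24 without Pb 6). For Ftl1 only Pb 2 lay within the controls, for Fth1 Pb 2 and Pb 4. Slc11a2, the divalent metal transporter through which lead can enter cells, ran from 24.7 to 31.0 CPM in control and from 26.0 to 32.5 in male Pb, with a log2 fold change of -0.02 ± 0.09 (SE). Hmox1, which degrades heme and responds to oxidative stress, ran from 4.68 to 8.74 and from 5.57 to 6.87 CPM (-0.12 ± 0.17 SE). Of the 21 antioxidant genes tested, 4 were higher and 1 was lower at an unadjusted p under 0.05 (7.65% and 3.88% of all genes), with a median of 0.01. Without Pb 6, 1 was higher and 0 were lower, near the 2.21% and 2.46% of all genes. Gpx4, the peroxidase of membrane lipids, was among the 4, at 179, 231 and 294 CPM in control and 234, 339 and 799 CPM (Pb 6) in male Pb (0.74 ± 0.28 SE, 0.4 without Pb 6, 0.21 with the covariate). Txnrd1, thioredoxin reductase, was the lower gene, at 60.3, 64.6 and 80.5 CPM in control and 46.6, 60.5 and 66.7 CPM in male Pb (-0.21 ± 0.09 SE, -0.15 without Pb 6).

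**Figure D4:**
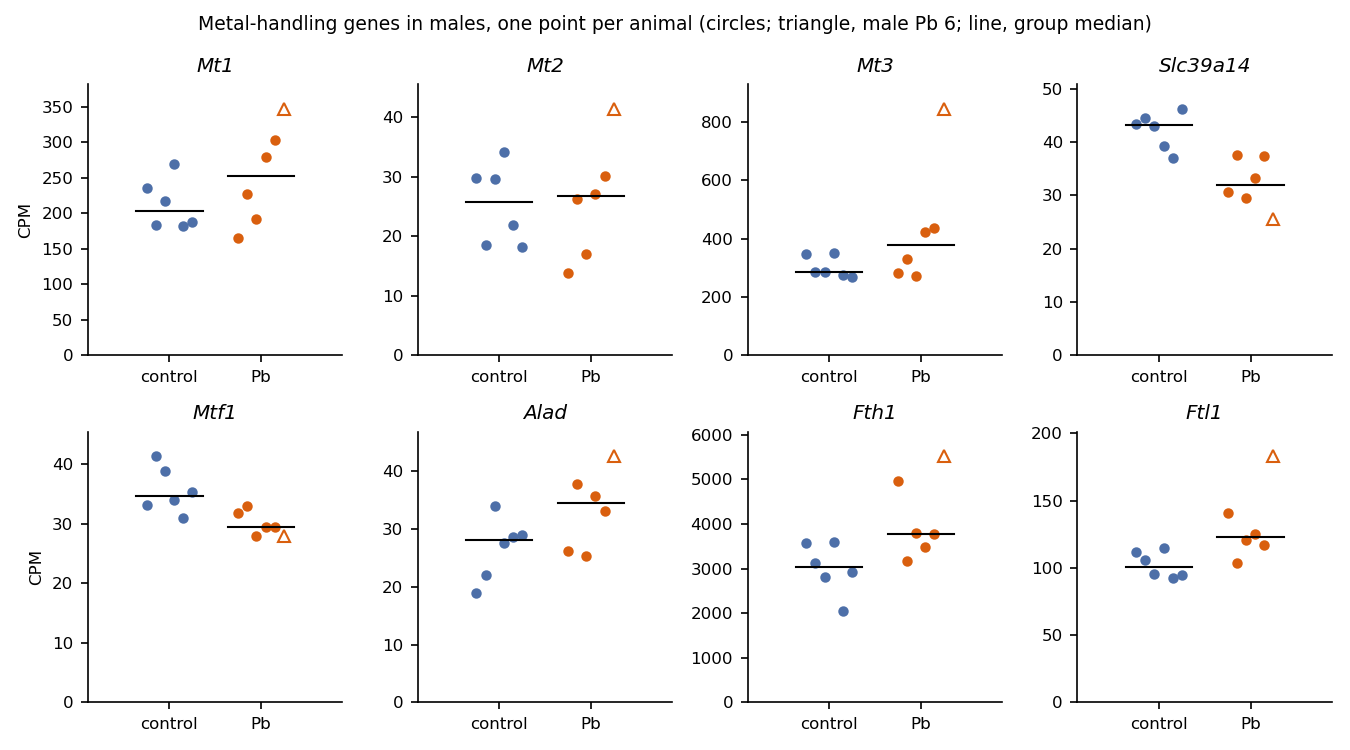
CPM (y axis, from 0) of 8 metal-handling genes in each male control and male Pb animal (x axis), with a line at the group median. Male Pb 6 has the highest value for Mt1, Mt2, Mt3, Alad, Fth1 and Ftl1 and the lowest for Slc39a14, where 4 of 6 male Pb animals lie below all controls.

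Glutamate receptor and calcium channel genes, which have long transcripts (a median of 6461 bases for the NMDA receptor subunits), had lower values, most of which lay closer to 0 with the length covariate. All 6 NMDA receptor subunits tested had a negative log2 fold change and none was at an unadjusted p under 0.05. Their median was -0.18, -0.12 without Pb 6 and 0.03 with the length covariate. Grin1, the obligatory subunit, was read at 286, 359 and 449 CPM in control and 234, 256 and 440 CPM in male Pb. The male Pb animals differed among themselves: Pb 2 and Pb 5 lay at 366 and 440 CPM, and the other 4 lay below every control. Grin1 had a log2 fold change of -0.27 ± 0.18 (SE), with an edgeR adjusted p of 0.52. Grin2a ran from 137 to 298 CPM in control and from 116 to 235 in male Pb, and Grin2b from 254 to 552 and from 189 to 454 CPM. With the covariate the log2 fold changes of the 3 genes were -0.11, 0.05 and 0.1, so that the sign of Grin2a and Grin2b was reversed. Of the 9 AMPA and kainate receptor subunits 2 were lower at an unadjusted p under 0.05, against 3.88% of all genes. Their median was -0.18, -0.12 without Pb 6 and -0.04 with the covariate, when none was at that p. Among the 2 was Gria1, at 728, 888 and 1110 CPM in control and 599, 672 and 954 CPM in male Pb (-0.29 ± 0.14 SE, -0.24 without Pb 6, -0.12 with the covariate). Grm2, a presynaptic receptor, was alone among 7 metabotropic glutamate receptors at that p, and 3.88% of all genes were lower. It was read at 48.7, 86.1 and 125 CPM in control and 42.6, 51.5 and 76.7 CPM in male Pb (-0.69 ± 0.24 SE, -0.63 without Pb 6, -0.6 with the covariate, -0.81 without control 4, whose 48.7 CPM is the lowest control). Of 15 voltage-gated calcium channel subunits 13 were negative, with a median of -0.18, and -0.15 without Pb 6. With the length covariate 8 were negative and 7 positive, with a median of -0.05. Cacna1c, an L-type channel, ran from 79.7 to 151 CPM in control and from 56.6 to 107 in male Pb, with a log2 fold change of -0.35 ± 0.17 (SE), -0.25 without Pb 6 and -0.09 with the covariate. Cacna1i, a T-type channel, had the opposite sign, and ran from 58.5 to 85.5 and from 65.5 to 114 CPM (0.31 ± 0.13 SE, 0.38 without Pb 6). Of 12 GABA-A receptor subunits, the channels of fast inhibition, only Gabra3 was at an unadjusted p under 0.05, near the 7.65% of all genes that were higher. Its values were 33.3, 42.4 and 54.7 CPM in control and 44.8, 56.0 and 74.3 CPM in male Pb (0.39 ± 0.14 SE, 0.35 without Pb 6).

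Genes that respond to neuronal activity and to glucocorticoids had mostly negative values. Of 23 immediate early genes 20 were negative, with a median of -0.21 (-0.16 without Pb 6, -0.11 with the covariate). Only 1 of the 23, Jun, was lower at an unadjusted p under 0.05, near the 3.88% of all genes. Jun was read at 80.7, 120 and 128 CPM in control and 59.4, 82.9 and 116 CPM in male Pb. Fos ran from 14.0 to 34.9 and from 12.4 to 31.8 CPM, with Pb 6 (12.4 CPM) below the controls and the other 5 male Pb animals among them. Bdnf, the growth factor of activity-dependent plasticity, was read at 24.1, 37.5 and 68.9 CPM in control and 22.5, 28.6 and 46.9 CPM in male Pb. The highest male Pb value was that of Pb 6, and the log2 fold change of Bdnf was -0.35 ± 0.22 (SE) with it and -0.51 without it. Of 15 glucocorticoid-responsive genes 14 were negative, with a median of -0.25, -0.28 without Pb 6 and -0.22 with the covariate. At that p 2 were lower without Pb 6, against 2.46% of all genes, and 3 with it, against 3.88%. The 3 were Errfi1, an inhibitor of the epidermal growth factor receptor, and the transcription factors Klf9 and Zbtb16. Errfi1 was read at 52.7, 58.3 and 69.8 CPM in control and 36.8, 45.5 and 52.3 CPM in male Pb, with no overlap, and its log2 fold change was -0.41 ± 0.14 (SE), -0.36 without Pb 6. Klf9 ran from 206 to 272 CPM in control and from 163 to 217 in male Pb, and Zbtb16 from 55.0 to 78.9 and from 40.4 to 65.4 CPM. Oxtr, the oxytocin receptor, ran from 5.58 to 7.51 and from 3.98 to 12.2 CPM, and the vasopressin receptor Avpr1b from 0.3 to 1.33 and from 0.341 to 1.08 CPM, with log2 fold changes of 0.11 ± 0.24 (SE) and 0.03 ± 0.45.

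Cell type markers also differed, and in bulk tissue fewer cells of a type and less RNA per cell cannot be told apart. Of 12 markers of dentate granule cells, the principal neurons of the dentate gyrus, 11 were negative and 5 were lower at an unadjusted p under 0.05, against 3.88% of all genes, with a median of -0.35. Without Pb 6 all 12 were negative and 6 were at that p, against 2.46% (median -0.34). With the length covariate 2 were at that p, against 2.44%. The median was -0.25 with the covariate and -0.45 without control 4. Prox1, which specifies granule cells, was read at 74.3, 121 and 184 CPM in control and 54.0, 79.4 and 111 CPM in male Pb (-0.58 ± 0.21 SE, -0.48 without Pb 6, -0.28 with the covariate). Pb 4 and Pb 6 lay below all controls, and the lowest control was control 4. Npnt, an extracellular matrix protein, ran from 33.7 to 66.7 CPM in control and from 23.6 to 53.2 (Pb 5) in male Pb (-0.6 ± 0.18 SE, -0.51 without Pb 6). Dsp, the junction protein desmoplakin, ran from 60.9 to 162 and from 41.3 to 107 CPM (-0.73 ± 0.26 SE, -0.69 without Pb 6). Averaged over the 12 markers, control 4 lay lowest of all animals (-0.56), Pb 1, Pb 3, Pb 4 and Pb 6 lay between -0.5 and -0.42, and Pb 2 and Pb 5 at -0.14 and -0.13 lay just below the other controls, of which the lowest stood at -0.06. Summed over the markers, male control ran from 474 to 961 CPM and male Pb from 482 to 686 CPM.

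Markers of CA1 pyramidal neurons had a median of 0.22 (10 tested), 0.27 without Pb 6. At an unadjusted p under 0.05, 3 were higher, against 7.65% of all genes, or 1 without Pb 6, against 2.21%. The highest log2 fold change of the 10 was 7.48, also the highest over all genes tested, and it weighs on any mean over this list. Spink8, a CA1 marker, was read at 10.3, 17.1 and 39.1 CPM in control and 17.2, 24.5 and 113 CPM in male Pb, and its log2 fold change of 1.02 ± 0.37 (SE) was 0.37 without Pb 6, the animal at 113 CPM. The medians were 0.04 for interneurons, 0.12 for mature oligodendrocytes, 0.1 for astrocytes, 0.15 for microglia and -0.02 for endothelial cells, beside 0.01 for all genes. Of the 12 astrocyte and 12 microglia markers, 11 each were positive. In each list 2 were higher at an unadjusted p under 0.05, against 7.65% of all genes. Without Pb 6, 1 astrocyte marker (list median 0.12) and 0 microglia markers (list median 0.07) were, against 2.21%. Mbp, a protein of myelin, was read at 3267, 4335 and 8477 CPM in control and 3987, 6746 and 9939 CPM in male Pb. Control 4 had the highest control value and Pb 1 and Pb 3 exceeded it (0.53 ± 0.24 SE, 0.76 without control 4).

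Tissue that borders or perfuses the hippocampus varied between animals of both groups, and its part in the results above was not tested. Choroid plexus markers summed to 205 to 7736 CPM in control (median 519) and 481 to 10588 CPM in male Pb (median 2524). None of the 18 was at an unadjusted p under 0.05, and their median log2 fold change was 0.64. Thalamus and habenula markers summed to 405 to 1951 CPM (median 884) and 359 to 1829 CPM (median 562). At that p 2 of 14 were lower (median -0.49), against 3.88% of all genes. Without Pb 6 none of the 14 was at that p and the median was -0.3, and with the length covariate none was, at -0.51. Meningeal markers summed to 142 to 333 CPM (median 209) and 126 to 224 CPM (median 197). Of the 14, 4 were lower (median -0.47), against 3.88% of all genes, or 3 without Pb 6 (median -0.37), against 2.46%. Among the 4 was Aldh1a2, the retinoic acid synthesising enzyme of the meninges, at 3.8, 7.96 and 13.2 CPM in control and 2.71, 3.66 and 5.88 CPM in male Pb (-0.98 ± 0.35 SE, -0.89 without Pb 6). The matrix protein Fmod ran from 6.94 to 29.7 and from 3.91 to 11.7 CPM (-0.98 ± 0.36 SE). Blood genes summed to 136 to 244 CPM in control (median 177) and 235 to 722 CPM in male Pb (median 366). Of 5 tested 3 were higher at that p, against 7.65% of all genes. Their median was 1.36, 0.81 without Pb 6 and 0.65 with the covariate. In those last settings 2 were at that p each time, against 2.21% and 3.13% of all genes. The adult beta-globin Hbb-bs was read at 88.2, 112 and 156 CPM in control and 141, 262 and 568 CPM in male Pb. Pb 2 alone lay within the controls, and the log2 fold change of Hbb-bs was 1.36 ± 0.44 (SE), 1.06 without Pb 6 and 0.83 with the covariate. Hbb-bt ran from 5.04 to 10.1 and from 9.25 to 36.0 CPM (1.37 ± 0.44 SE, 1.1 without Pb 6, 0.93 with the covariate). The pair are near-identical copies between which reads may be shared. No marker of these lists was at 0 in all 12 libraries.

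**Figure D5:**
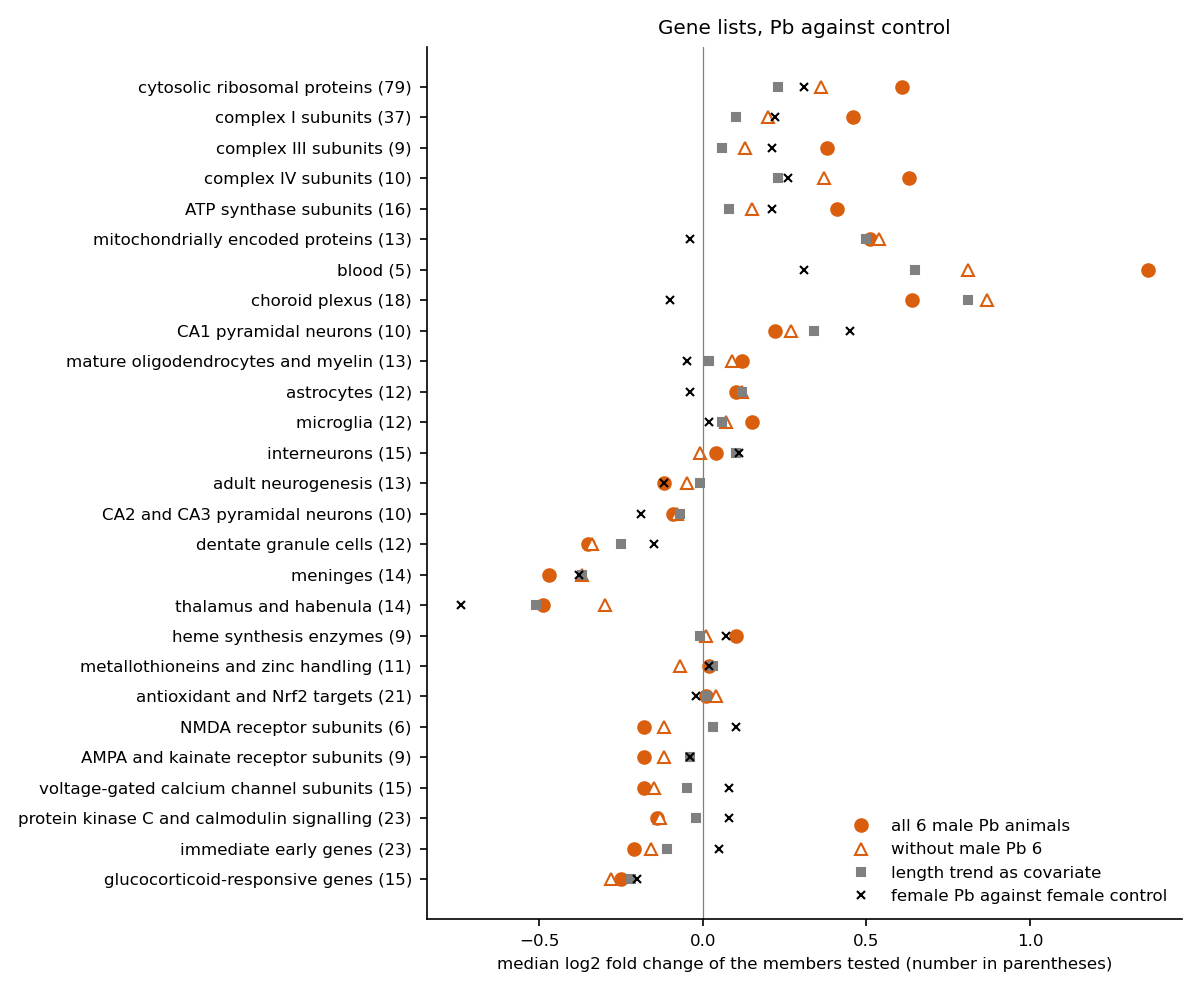
Median log2 fold change of Pb against control (x axis) over the tested members of 27 gene lists (y axis, number of members in parentheses), for all 6 male Pb animals, without Pb 6, with the length slope as a covariate, and for the female Pb against the female control animals. The medians of the nuclear-encoded ribosomal and respiratory chain lists move towards 0 without Pb 6, and those of the mitochondrially encoded proteins (0.51 and 0.54) and the dentate granule cell markers (-0.35 and -0.34) barely move.

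Whether lead-exposed sons differed from their controls in another way than lead-exposed daughters was tested as a sex by Pb interaction, which compares pairs of groups that share no library. The library labelled female Pb 4 had Xist at 0.0684 CPM, against 18 to 495 CPM in the other 11 female Pb and female control libraries. Ddx3y, Eif2s3y and Uty, genes of the Y chromosome, were at 0 in all 12. No gene passed the adjusted threshold by edgeR (smallest adjusted p 1.0), and 309 (1.89%) had an unadjusted p under 0.05. No gene passed by DESeq2, voom or voom with library weights either, with 333, 325 and 1725 at an unadjusted p under 0.05. About 818 genes are expected by chance at that p. Without the library labelled female Pb 4 the interaction gave 0 adjusted and 270 unadjusted genes (1.65%). Female Pb 2 had a length slope of -0.31, close to that of male Pb 6. Without female Pb 2 the unadjusted count was 2108 (12.9%), and without both animals it was 968 (5.92%), with 0 adjusted calls each time. In females the contrast of Pb with control alone gave 0 adjusted calls and 368 unadjusted (2.25%), or 0 and 398 (2.43%) without the library labelled female Pb 4. The median of the cytosolic ribosomal proteins in females was 0.31, -0.1 without female Pb 2 and 0.41 without female Pb 4, beside 0.61 and 0.36 in males with and without male Pb 6. For the mitochondrially encoded proteins the female median was -0.04, beside 0.51 in males, and 3 of the 13 had an unadjusted interaction p under 0.05. Without female Pb 4 that median was -0.12 and 6 of the 13 were at that p. For the dentate markers the female median was -0.15, beside -0.35, with 2 of 12 at that p, and -0.11 with 1 of 12 without female Pb 4. For the CA1 markers the female median was 0.45, beside 0.22 in males, with all 10 positive in females and 0 at that interaction p. It was 0.5 without female Pb 4. The genes of smallest interaction p included Cdca8 (-0.98 in males, 0.29 in females, interaction -1.27 ± 0.34 SE), Lrrn1 (-0.44 and 0.05, interaction -0.49 ± 0.17) and, in the other direction, Fcgr1, an activating immunoglobulin receptor of microglia. Fcgr1 was read at 3.8, 4.32 and 5.36 CPM in male control and 3.59, 7.18 and 9.82 CPM in male Pb, where 5 animals exceeded all controls and Pb 2 lay below them. In Fcgr1 the log2 fold change was 0.65 ± 0.2 (SE) in males and -0.25 in females (interaction 0.89 ± 0.29). Eif2ak2, the kinase that senses double-stranded RNA, and Bst2, an interferon-induced antiviral protein, had interactions of 0.61 ± 0.2 (SE) and 1.85 ± 0.62. In both most of the difference lay in the females (-0.51 and -1.11, beside 0.1 and 0.73 in males). Bst2 was read at 1.89, 3.22 and 18.2 CPM in female control and 1.46, 2.2 and 3.9 CPM in female Pb, so its female value leans on the highest control. Eif2ak2 was read at 5.95, 9.69 and 15.3 CPM in female control and 6.4, 6.91 and 7.88 CPM in female Pb. Of the 19 genes of interferon response and antigen presentation 6 had an unadjusted interaction p under 0.05, with medians of 0.18 in males and -0.33 in females, and none was at that p in the male contrast. Without female Pb 4 the female median was -0.41 and 5 of the 19 were at that p. The interactions of Cdca8, Lrrn1, Fcgr1, Eif2ak2 and Bst2 were then -1.31, -0.43, 0.88, 0.61 and 2.02.

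The sons exposed to both metals were set against the same 6 control libraries, so their values are given side by side with no test of likeness. Against these controls the median log2 fold change in male Pb+Mn was 0.04 for cytosolic ribosomal proteins, 0.09 for mitochondrially encoded proteins, 0.04 for dentate granule cell markers and -0.81 for thalamus and habenula markers. The same medians in male Pb were 0.61, 0.51, -0.35 and -0.49, and without Pb 6 they were 0.36, 0.54, -0.34 and -0.3. Blood genes had a median of 1.28 in male Pb+Mn beside 1.36 in male Pb, choroid plexus markers 0.47 beside 0.64, and CA1 markers 0.25 beside 0.22. The nuclear-encoded respiratory chain had -0.11 beside 0.46, and meningeal markers 0.02 beside -0.47. In male Pb without Pb 6 these lists had, in that order, 0.81, 0.87, 0.27, 0.2 and -0.37.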

How the data were processed

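Hippocampal RNA of 48 mice in 8 groups of 6 had been sequenced, and 12 libraries (6 male Pb, 6 male control) are described here. The values are whole-number read counts per gene, not normalized by the authors before they were deposited. The submitters' processing notes name featureCounts 2.0.6, STAR 2.7.10b and Trim Galore 0.6.9, also edgeR, limma and R 4.4.2, and the build GRCm39. The strand and multiple-match settings are not given in the sources used here. Of 57126 identifiers 51884, with 99.52% of counts, matched a symbol in the reference table of gene names. Transcript length is that of the longest transcript of a gene in GENCODE M21 (98.4% of the genes tested have one), and no coordinate of that annotation is printed. Promoter sequences are from RefSeq on GRCm38.p6, another build than that of the counts.

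All 48 libraries were fitted at once with a term per group in edgeR 4.0.16 (R 4.3.3; TMM, filterByExpr, glmQLFit, glmQLFTest, two-sided, Benjamini-Hochberg over 16360 genes, threshold 0.05). CPM are per TMM-scaled total, with 2 counts added before logarithms. The SE was obtained from the fold change and the F value. A positive log2 fold change is higher in Pb, and "without Pb 6" and "with the covariate" are refits of the whole table. Length slopes used genes averaging 1 or more in log2 CPM and an exact permutation test over 924 arrangements of 6 against 6 (smallest possible p 0.0022). On counts simulated for this contrast over 16360 genes, the test recovered 55.2% of genes changed 1.5-fold, 86.6% of those changed 2-fold and all of those changed 4-fold, with 4 false among 165 calls. The simulated counts varied independently between genes, with no length trend, outlying library or litter, and genes of the lowest means were not changed. These rates are therefore not the power of the real comparison.

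The comparison, the 41 gene lists and the rule for named genes were chosen with earlier results of these data known. The rule named the 8 higher and 8 lower genes of smallest p (log2 CPM averaging 0 or more; no unnamed models, pseudogenes or mitochondrial transfer RNAs), the same without Pb 6, up to 3 genes of smallest p per list, a fixed set (Alad, Mt1, Mt2, Mt3, Grin1, Grin2a, Grin2b, Bdnf, Fos, Hmox1, Oxtr, Avpr1b, Slc11a2, Prox1, Il1r1), and 4 per direction for the interaction. Lists are described by counts and medians, with no test of the list. Alternatives were DESeq2 1.42.0 and its size factors, limma 3.58.1 (voom, with and without library weights), no filter on low counts, other sets of libraries, the length covariate, a replicate block and each library left out. Leaving out male Pb 6 and female Pb 2 together was chosen after seeing the data. The lowest chi-square per degree of freedom between libraries of a group was 8.98, so none was a repeat of another.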

Additional observations from a re-analysis of the deposited data

Results flagged for a closer look

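By Dixon's test, which sets the gap to the nearest animal against the whole range, 1 animal of 6 stood apart in 13 of 154 groups checked. Chance flags about 1 in 20 independent groups. Many of the genes checked were named by p in a contrast that includes Pb 6, and they are not independent, so that rate is no yardstick here. Of the 13, 10 were male Pb 6, always as the highest animal of the male Pb group. These were Ndufaf8 (29.0 CPM), Khdrbs2 (7.24 CPM), Mt3 (845 CPM), Gpx4 (799 CPM), the ribosomal protein genes Rps12 (957 CPM), Rps7 (663 CPM) and Rps20 (408 CPM), the respiratory chain subunits Cox7b (1252 CPM) and Ndufb8 (81.8 CPM), and the CA1 marker Spink8 (113 CPM). The annotated transcripts of 7 of the 10 genes fall in the shortest decile, those of Ndufb8 (2142 bases), Rps20 (3706) and Khdrbs2 (5278) do not, and this animal has the lowest length slope of the series (-0.348). The other 3 were Grm2 in male Pb 5 (76.7 CPM), Lrrn1 in male control 3 (131 CPM) and Mbp in male control 4 (8477 CPM), each the highest of its group.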

How the results depend on the processing

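Litter, sequencing batch and dissection cannot be separated from the groups with the labels in use here, and the typical SE on the log2 scale, a median of 0.16, bounds what 6 animals a group can show. The count of adjusted calls was 0 under every alternative run except without male Pb 2, which gave 1 (range 0 to 1 with 1 library left out). Unadjusted counts (1886) moved most with no filter on low counts (2993 of 36923 genes tested, 8.11%, beside 11.5% of 16360), the length covariate (911, or 989 with male Pb 6 also left out), DESeq2 without male Pb 6 (821), and male Pb 6 and female Pb 2 both left out (1085). With 1 library left out they ran from 763 (male Pb 6) to 2883 (male Pb 5), with 2871 for male Pb 2. The other alternatives stayed within 1.5 times. The length difference of -0.108 stayed negative, from -0.139 to -0.0488 with 1 animal left out. Animals of the 2 groups share only a number: their same-numbered deviations correlated from -0.236 to 0.31, 2 of 6 pairs were over 0.1, and 1 male Pb animal correlated best with its own number. With the replicate block the fit gave 0 adjusted and 1860 unadjusted genes, and 0 for the interaction. No cause of these shifts was tested beyond the fewer samples or the term that defines each alternative.

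Of 1725 gene fold changes recomputed for the 75 genes with printed values, 29 in 6 genes changed sign, and none of these genes was near the threshold. Mt2 (0.03) was -0.02 with voom, -0.2 with library weights, -0.17 with the covariate, -0.21 with the covariate and without Pb 6, -0.15 by DESeq2 without Pb 6, and from -0.15 to 0.16 with 1 library left out. Grin2a was 0.05 with the covariate, and Grin2b was 0.1, or 0.0 with Pb 6 also left out. Oxtr was -0.02 with voom and -0.09 with weights, and from -0.13 to 0.22 with 1 library left out. Avpr1b was -0.04 by DESeq2 without Pb 6 and ran from -0.18 to 0.29. Slc11a2 was 0.01 by DESeq2 without Pb 6, 0.04 with the covariate and 0.03 without Pb 6 as well, and ran from -0.06 to 0.0 with 1 library left out.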
